A study of Mus musculus with 15 samples.

Results

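The immediate early and AP-1 genes described here were the 10 genes Fos, Fosb, Jun, Junb, Egr1, Atf3, Ier2, Dusp1, Klf6 and Zfp36, taken by gene symbol from a table of 19602 genes, and all 10 were found. The table held 3' end RNA-seq of whole mouse kidneys in 15 libraries of 4 groups. Generation 3 (G3) Tert-/- mice, bred without telomerase reverse transcriptase and so with shortened telomeres, had received folic acid (n = 4) or vehicle (n = 4). Tert+/+ mice, called WT, had received folic acid (n = 3) or vehicle (n = 4). Folic acid was given as 1 intraperitoneal dose of 125 mg/kg, which the study calls low, and the vehicle was 0.3 M NaHCO3 in 200 ul. The mice were 6 to 8 weeks old, males and females were used, and every kidney was collected at day 14 after perfusion with saline. Both G3 groups carried the Tert deletion, so the G3 vehicle kidneys are no controls for it. The labels do not say that each library came from its own animal, so the p-values measure the spread between these libraries.

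Immediate early genes are transcribed within minutes of a growth factor, a stress or a mechanical stimulus, from factors already present in the cell. Fos and Jun family proteins pair to form AP-1, which binds DNA at the sequence TGACTCA, while Egr1, Atf3 and Klf6 are transcription factors of other families and Dusp1 and Zfp36 switch the response off again. In kidney the set is known to be induced by ischaemia and toxic injury, and also by excision and dissociation of the tissue. The scale below is the authors' normalised count, in which 1 read was worth 0.895 to 1.13 in the different libraries. Because the protocol reads the 3' end of each transcript once, these counts were not divided by transcript length.

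The promoters of Fosb, Fos, Atf3 and Junb are shown because Fosb, Fos and Atf3 had the widest spread between libraries and Junb was highest in the libraries with most injury transcript, as described below. Each sequence is the 250 bases before the start of the gene in RefSeq on GRCm38.p6, 5' to 3' on the strand of the gene, with matches to the searched motifs in capitals. The Fosb window lies at chr7:19310046-19310295, the Fos window at chr12:85473640-85473889, the Atf3 window at chr1:191183334-191183583 and the Junb window at chr8:84978749-84978998.
Fosb: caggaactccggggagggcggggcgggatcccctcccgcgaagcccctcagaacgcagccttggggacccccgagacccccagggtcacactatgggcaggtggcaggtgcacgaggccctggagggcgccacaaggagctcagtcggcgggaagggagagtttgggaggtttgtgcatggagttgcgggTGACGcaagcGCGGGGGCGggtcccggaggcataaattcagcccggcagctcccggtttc
Fos: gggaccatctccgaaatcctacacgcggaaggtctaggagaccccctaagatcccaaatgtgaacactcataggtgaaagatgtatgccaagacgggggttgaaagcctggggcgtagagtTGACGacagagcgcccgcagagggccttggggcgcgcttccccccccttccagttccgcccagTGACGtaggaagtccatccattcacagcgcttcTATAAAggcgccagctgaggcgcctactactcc
Atf3: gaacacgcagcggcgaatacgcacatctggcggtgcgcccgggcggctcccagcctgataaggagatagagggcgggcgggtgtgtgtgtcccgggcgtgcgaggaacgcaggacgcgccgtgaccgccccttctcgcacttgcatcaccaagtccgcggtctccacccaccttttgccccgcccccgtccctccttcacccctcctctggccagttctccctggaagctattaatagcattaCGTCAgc
Junb: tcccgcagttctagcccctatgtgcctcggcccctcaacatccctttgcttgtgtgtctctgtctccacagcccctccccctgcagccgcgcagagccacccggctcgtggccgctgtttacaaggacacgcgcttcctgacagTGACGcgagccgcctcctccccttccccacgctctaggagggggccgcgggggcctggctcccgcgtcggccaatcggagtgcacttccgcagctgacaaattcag
The capitals mark TGACG, the core of the cyclic AMP response element, on either strand (CGTCA on the other), GCGGGGGCG, the Egr family motif, in Fosb, and TATAAA in Fos, which was searched on the printed strand only. Of the 10 members, 8 had a RefSeq promoter, and Egr1 and Ier2 are named only. TGACG was present in 5 of the 8 (Atf3, Fosb, Junb, Fos and Dusp1) and in 17.8% of all 32851 promoters. The whole element TGACGTCA, which contains the core on both strands, was in Dusp1 and in 1.55% of all promoters. The Egr motif was in Fosb and Zfp36 against 2.57% of promoters, TATAAA in Fos against 7.59%, and the CArG box bound by serum response factor in Zfp36 against 1.47%. The AP-1 motif TGACTCA was in none of the 8 windows and in 4.46% of all promoters. The whole Zfp36 window and 47 bases of the Dusp1 window lie in UTRs of the GENCODE annotation, so that their matches need not be upstream of every annotated start. A match is a description of letters in the window and no measurement of binding.

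No member passed the limma test (adjusted p under 0.05 over 14651 genes) in any comparison, and all 10 were among the genes tested. The share of all genes called was 5.06% for folic acid against vehicle in WT, 0.273% for folic acid against vehicle in G3, 2.9% for G3 against WT after vehicle, 2.3% for G3 against WT after folic acid, and 3.82% for the difference between the genotypes' folic acid effects. At an unadjusted p under 0.05 the members numbered 2, 2, 2, 1 and 0 in the same order of comparisons, where 23.1%, 13.8%, 17.9%, 20.4% and 16.8% of all genes lay. edgeR on the recovered whole reads also called 0 members in each comparison. DESeq2 called 1, Fosb, in folic acid against vehicle in G3 and in G3 against WT after folic acid, and 0 in the other 3. DESeq2 also called more genes in all, with 387 of 14632 for folic acid in G3 and 763 for G3 against WT after folic acid. The limma counts there were 40 and 337. Every member except Ier2 varied between libraries of 1 group more than most genes at its level. For Fosb, Fos, Atf3, Egr1, Jun and Junb at most 6.78% of the genes at their level varied more. Fosb had at most 1 read in every G3 kidney given folic acid.

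**Figure D1:**
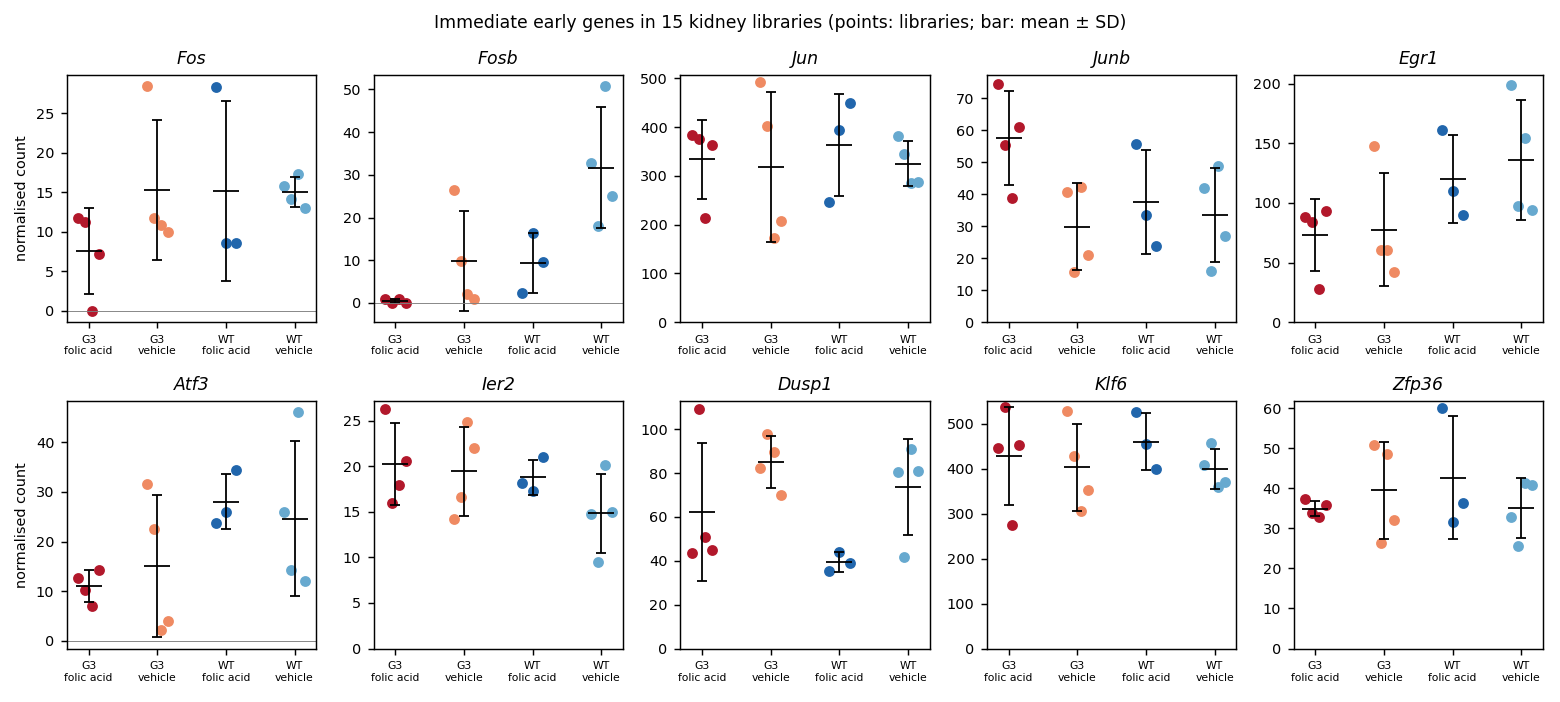
Normalised count (vertical axis) of each of the 10 genes in the 4 groups (horizontal axis), with 1 point per library and bars at mean ± SD. Fosb lay between 0 and 0.999 in the 4 G3 folic acid libraries, and Fos, Atf3 and Egr1 show single libraries far from the rest of their group.

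Fosb had the lowest log2 difference of the 10 members in all 4 comparisons of groups. Fosb, a partner of Jun proteins in AP-1 whose stable variant accumulates in brain on repeated stimulation, had 0.908, 0, 0.999 and 0 normalised counts in G3 folic acid kidneys, which is 2 reads in all. It had 26.4, 9.77, 2.16 and 1.0 in G3 vehicle kidneys, 2.27, 16.3 and 9.53 in WT folic acid kidneys, and 32.8, 18.0, 50.8 and 25.0 in WT vehicle kidneys. All 4 WT vehicle libraries were thus above all 3 WT folic acid libraries, and all 4 G3 folic acid libraries below every library of the other groups, although 1 read in G3 vehicle 4 and 1 read in G3 folic acid 3 cannot be told apart. The means were 0.477 ± 0.552 in G3 folic acid, 9.84 ± 11.7 in G3 vehicle, 9.37 ± 7.03 in WT folic acid and 31.7 ± 14.1 in WT vehicle kidneys (SD), and those of G3 vehicle and WT folic acid differed by less than their SD. By summed reads the ratio of G3 folic acid to G3 vehicle was 0.0470 (exact 95% interval 0.0055 to 0.182, from 2 and 39 reads), and 0.106 (0.0116 to 0.467, from 2 and 13 reads) without G3 vehicle 1, a library left out after its values were seen. Against WT folic acid it was 0.0478 (0.0055 to 0.189, from 2 and 29 reads), and the intervals cover counting error only. On the log2(normalised count + 1) scale, Fosb differed by -1.86 ± 0.77 (SE) for folic acid against vehicle in WT (limma adjusted p = 0.158) and by -2.23 ± 0.71 for folic acid against vehicle in G3 (limma adjusted p = 0.155). The difference was -2.21 ± 0.71 for G3 against WT after vehicle (limma adjusted p = 0.101) and -2.59 ± 0.77 for G3 against WT after folic acid (limma adjusted p = 0.0819). In WT it was -1.18 without WT folic acid 1 and -0.82 with the share of Y-linked RNA as a term (limma adjusted p = 0.981), and for G3 against WT after vehicle -1.15 with that term and -3.70 with the series of the sample titles. With a pseudocount of 5 in place of 1 the log2 difference was -1.12 for folic acid in G3 and -1.26 for G3 against WT after folic acid. DESeq2 on whole reads gave Fosb adjusted p = 0.0216 for folic acid in G3 and adjusted p = 0.0207 for G3 against WT after folic acid. The call in G3 against WT after folic acid also passed in limma without G3 vehicle 1 (adjusted p = 0.0451), without WT folic acid 1 (adjusted p = 0.0362) and with library weights (adjusted p = 0.0038), and the adjusted p over 29 alternatives ran to 0.999. After vehicle Fosb passed without G3 vehicle 1 (adjusted p = 0.0286) and with library weights (adjusted p = 0.0060), and its adjusted p over 29 alternatives ran to 0.876. With library weights limma called 2851 of 14651 genes for G3 against WT after folic acid and 1492 after vehicle. The reported fit called 337 and 425.

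Groups did not overlap for Fosb in folic acid against vehicle in WT (lower, as were 10.6% of genes), in folic acid against vehicle in G3 (lower, as were 3.77%) and in G3 against WT after folic acid (lower, as were 9.44%). After vehicle the G3 and WT libraries overlapped, because G3 vehicle 1 at 26.4 lay above WT vehicle 2 and 4, and no member separated those groups (11% of genes did, in either direction). Fewer cells carrying the transcript and less RNA per cell cannot be told apart in these whole-kidney samples.

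Fos, the founding member of the family, had 11.8, 11.3, 0 and 7.16 normalised counts in G3 folic acid kidneys and 28.5, 11.7, 10.8 and 10.02 in G3 vehicle kidneys. It had 28.4, 8.64 and 8.58 in WT folic acid kidneys and 15.8, 14.2, 17.3 and 13.0 in WT vehicle kidneys. G3 folic acid 3 was at 0 reads, which allows up to 3.00 normalised counts (3 counts), while G3 vehicle 1 and WT folic acid 1 lay above every WT vehicle library. The log2 difference was -1.31 ± 0.65 for folic acid against vehicle in G3 (limma adjusted p = 0.385) and -1.22 ± 0.70 for G3 against WT after folic acid (limma adjusted p = 0.339). Without G3 folic acid 3 these were -0.45 and -0.36, and without WT folic acid 1 the one after folic acid was -0.68.

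Among the Jun proteins, Jun and Junb did not run in parallel. Jun, the main AP-1 activator, was abundant, with 384, 375, 214 and 363 normalised counts in G3 folic acid kidneys, 491, 403, 173 and 206 in G3 vehicle kidneys, 247, 394 and 449 in WT folic acid kidneys, and 381, 345, 286 and 288 in WT vehicle kidneys. The means of the 4 groups lay between 318 and 364, and the widest range was that of the G3 vehicle kidneys, where libraries 1 and 2 stood above every WT vehicle library and libraries 3 and 4 below. Junb, a weaker activator that can hold Jun in check, had 74.4, 55.4, 39.0 and 60.8 in G3 folic acid kidneys against 40.7, 15.6, 42.2 and 21.0 in G3 vehicle kidneys. It had 55.6, 33.6 and 23.8 in WT folic acid kidneys against 41.8, 16.1, 48.9 and 27.0 in WT vehicle kidneys. In all, 3 of the 4 G3 folic acid libraries exceeded every vehicle library of either genotype. The log2 difference for folic acid against vehicle in G3 was 0.999 ± 0.37 (limma adjusted p = 0.226), and that for the difference between genotypes was 0.80 ± 0.55 (limma adjusted p = 0.50).

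The zinc finger factor Egr1, itself a regulator of fibrotic genes, had 88.1, 83.6, 28.0 and 93.0 normalised counts in G3 folic acid kidneys, 147, 60.6, 60.6 and 42.1 in G3 vehicle kidneys, 161, 110 and 89.6 in WT folic acid kidneys, and 199, 97.6, 154 and 93.9 in WT vehicle kidneys. G3 values were lower than WT values on average after either injection, with overlap in both. The log2 difference was -0.90 ± 0.40 for G3 against WT after vehicle (limma adjusted p = 0.242) and -0.81 ± 0.43 after folic acid (limma adjusted p = 0.300), the last of which was -0.40 without G3 folic acid 3. Atf3, a stress factor of the CREB and ATF family that dimerises with Jun proteins, had 12.7, 10.3, 6.99 and 14.3 in G3 folic acid kidneys, all below the 23.8, 25.9 and 34.3 of WT folic acid kidneys. In G3 vehicle kidneys it had 31.5, 22.5, 2.16 and 4.01, against 26.0, 14.2, 46.1 and 12 in WT vehicle kidneys. Atf3 was the other member, beside Fosb, whose G3 and WT libraries did not overlap after folic acid, with a log2 difference of -1.29 ± 0.65 (limma adjusted p = 0.278). After vehicle the log2 difference was -1.09 ± 0.60 (limma adjusted p = 0.365), with -0.52 without G3 vehicle 3, -1.75 with labelled sex as a term and -1.76 with library weights. After folic acid it was -0.24 with the series of the sample titles as a term.

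Dusp1, a nuclear phosphatase that inactivates MAP kinases and is induced by glucocorticoids as well as by stress, differed in another way. It had 43.6, 109, 50.9 and 44.7 normalised counts in G3 folic acid kidneys and 82.4, 97.7, 89.8 and 70.2 in G3 vehicle kidneys. It had 35.2, 44.2 and 39.1 in WT folic acid kidneys and 80.3, 41.7, 91.1 and 80.9 in WT vehicle kidneys. Every folic acid library except G3 folic acid 2 had at most 50.9, and every vehicle library except WT vehicle 2 had at least 70.2. For folic acid against vehicle the log2 difference was -0.83 ± 0.30 in WT (limma adjusted p = 0.108) and -0.55 ± 0.28 in G3 (limma adjusted p = 0.397), and G3 against WT after folic acid gave 0.54 ± 0.30 (limma adjusted p = 0.324). Without G3 folic acid 2 the last 2 were -0.85 and 0.23. In WT the adjusted p was 0.0244 without WT vehicle 2, 0.0457 without G3 folic acid 2, 0.0251 without both libraries of mixed sex RNA and 0.0217 with library weights, and over 30 alternatives it ran to 0.981.

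The 3 remaining members had the smallest SD within groups of the 10, although Klf6 and Zfp36 still varied more than most genes at their level. Klf6, a zinc finger factor induced in injured tubules with the highest counts of the 10, had 276 to 537 normalised counts in G3 folic acid kidneys, 305 to 528 in G3 vehicle kidneys, 400 to 526 in WT folic acid kidneys and 360 to 458 in WT vehicle kidneys. Zfp36, which binds AU-rich elements and speeds the decay of cytokine transcripts, had 33.0 to 37.2, 26.4 to 50.8, 31.7 to 60.1 and 25.6 to 41.3 in the same order of groups. Ier2, a nuclear protein of the early growth response, had 16.0 to 26.3, 14.2 to 24.9, 17.3 to 21.0 and 9.48 to 20.1. Every group overlapped every other for these 3 genes, and their log2 differences in the 4 comparisons of groups lay within -0.23 and 0.38.

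**Figure D2:**
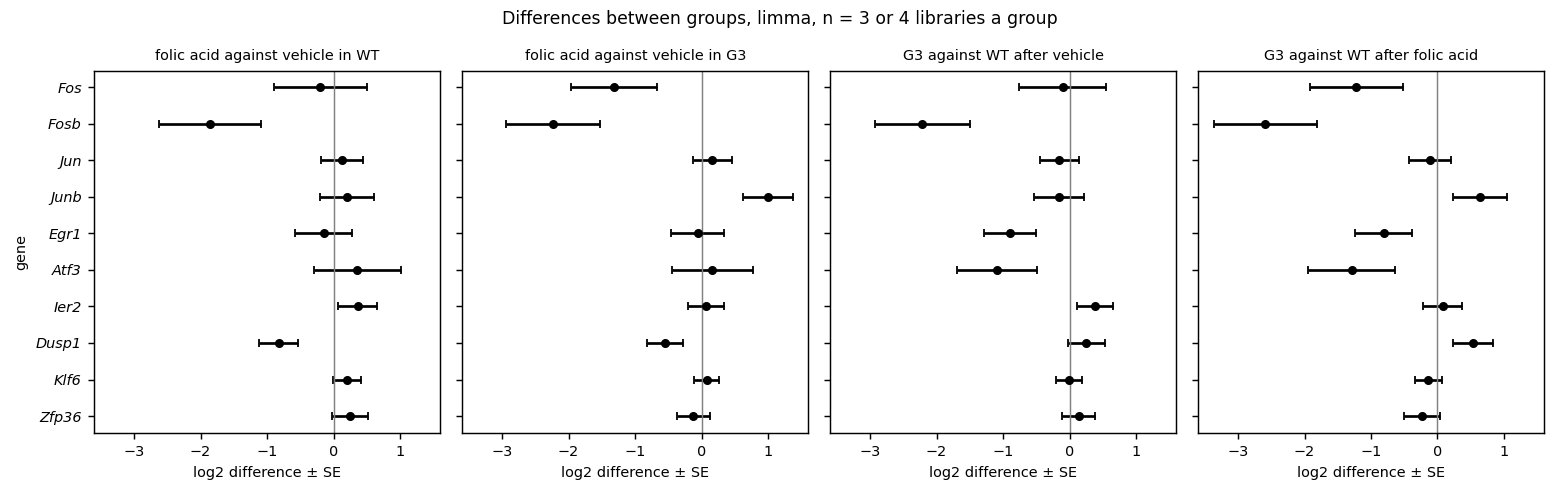
Log2 difference (horizontal axis, log2 of normalised count + 1) with its SE from limma for each gene (vertical axis) in the 4 comparisons of groups. Fosb has the lowest value in all 4 panels, from -1.86 to -2.59, and Klf6 and Zfp36 lie between -0.23 and 0.24.

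For 6 of the 10 members the spread between libraries of the same group was exceeded by at most 6.78% of the genes at their level, and for Ier2 it was smaller than in most. The SD of log2(normalised count + 1) within groups had a median of 0.54 over the 10 members, against 0.31 over all genes tested. Fosb had 1.13, Fos 1.06 and Atf3 0.997, where the median of the 2973 genes with a mean of 10 to 30 was 0.490 and only 2.25%, 2.89% and 3.53% of those genes had a larger SD. Counting error alone would give an SD near 0.399 at the mean of Fosb and Fos. That figure does not apply where Fos had 0 reads (G3 folic acid 3) or Fosb 0 or 1 read (all G3 folic acid libraries), and these libraries enter the SD of both genes. Egr1 (0.667) and Jun (0.487) were exceeded by 2.39% and 5.44% of the genes with a mean of 100 or more, whose median was 0.215. Junb (0.603) was exceeded by 6.78% of genes with a mean of 30 to 100, while Dusp1 (0.434) and Klf6 (0.304) were exceeded by 20.1% and 21.3% of the genes at their levels. Ier2, at 0.329 near its counting error of 0.335, was exceeded by 89.9% of genes at its level, and Zfp36, at 0.354, by 37.2%.

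**Figure D3:**
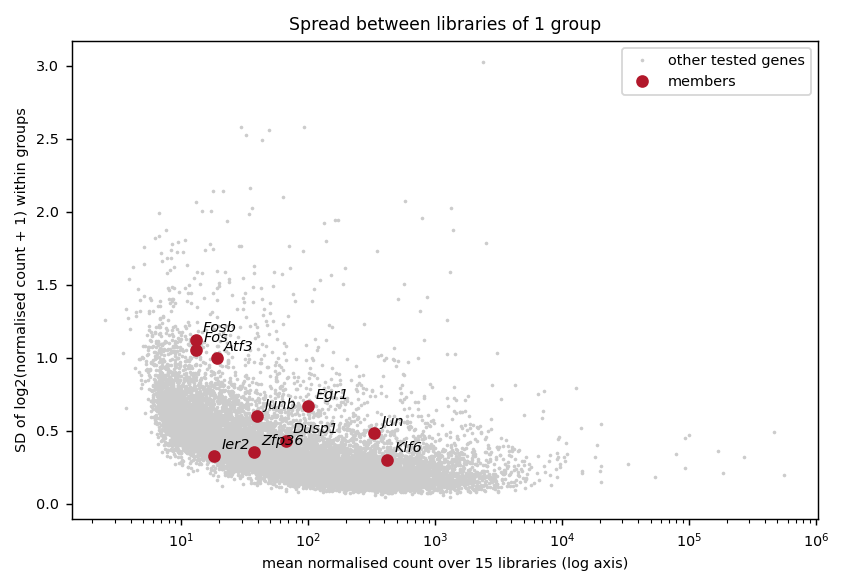
SD of log2(normalised count + 1) within groups (vertical axis) against the mean normalised count over 15 libraries (horizontal log axis), with members in red and other tested genes in grey. Fosb, Fos and Atf3 lie near the upper edge of genes at their level, and Ier2 below most genes at its level.

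The libraries at the extremes did not fall in 1 group. G3 vehicle 1 ranked among the 3 highest for 6 members (Fos, Fosb, Jun, Atf3, Klf6 and Zfp36), and WT vehicle 3 and WT folic acid 1 for 5 each. G3 folic acid 3 ranked among the 3 lowest for 5 members (Fos, Jun, Egr1, Atf3 and Klf6), as did G3 vehicle 4 (Jun, Junb, Egr1, Atf3 and Klf6). G3 vehicle 1 and 4, of the same genotype and injection, were therefore near opposite ends of the whole series. G3 vehicle 1 also held the most RNA of 3 adipose markers (Adipoq, Cfd and Plin1), which summed to 1954 normalised counts there and to 0 to 359 in the other 14 libraries. The part of adipose tissue in its values was not tested.

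**Figure D4:**
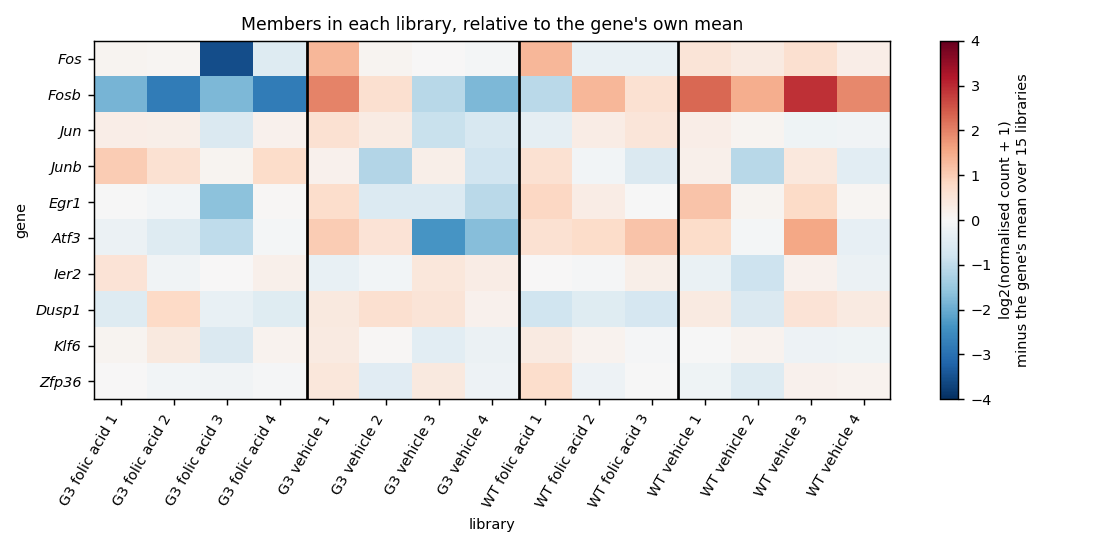
Log2(normalised count + 1) of each gene (rows) in each library (columns, black lines between groups), as the difference from the gene's mean over 15 libraries. Fosb and Atf3 are blue in G3 vehicle 3 and 4 and red in G3 vehicle 1 and 2, and Fos and Egr1 are lowest in G3 folic acid 3.

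The depth of the libraries was even, at 5014684 to 6609307 reads. The ribosomal repeat gene Gm42418 took 23.0% of the reads of WT folic acid 1 and 4.85% to 8.15% of the others. Xist and Y-linked RNA contradicted the labelled sex in 10 libraries, matched it in 3 and were both present in G3 folic acid 4 and WT vehicle 2. By RNA all 4 G3 vehicle and all 3 WT folic acid libraries were female, while 3 of the 4 WT vehicle libraries were male and the other mixed. Sex by RNA and group therefore cannot be told apart in the WT comparison of injections or in G3 against WT after vehicle, where the share of Y-linked RNA as a term left 1 and 1 of all genes called, against 741 and 425. G3 folic acid 1 and 3 were male by RNA, 2 was female and 4 mixed. Sex by RNA was thus also unequal for folic acid in G3 and for G3 against WT after folic acid. With the Y share 9 and 17 genes were called there, against 40 and 337, and Fosb differed by -2.85 (limma adjusted p = 0.299) and -3.19 (limma adjusted p = 0.255). The sample titles carry 3 series of numbers. The first held only G3 vehicle 1 to 3 and the second only WT vehicle 1 to 3 with the WT folic acid libraries. The third held all G3 folic acid libraries with G3 vehicle 4 and WT vehicle 4. In the third series Fosb was at 0 to 0.999 in G3 folic acid kidneys, 1.0 in G3 vehicle 4 and 25.0 in WT vehicle 4. With the title series as a term the log2 difference of Fosb for folic acid in G3 was -0.52, against -2.23 without it. Proximal tubule markers Lrp2, Slc34a1, Slc5a2, Slc22a6 and Aqp1 summed to 18103 to 37992 normalised counts in the 15 libraries, so that kidney tubule was present in all.

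Injury of the tubules was measured in the same libraries by Havcr1 (KIM-1) and Lcn2 (NGAL), transcripts of damaged tubular cells. Havcr1 had 80.8, 58.2, 22.0 and 53.7 normalised counts in G3 folic acid kidneys, 0, 0, 3.25 and 9.02 in G3 vehicle kidneys, 44.2, 4.80 and 0.953 in WT folic acid kidneys, and 2.26, 0, 1.92 and 5.0 in WT vehicle kidneys. The libraries thus formed a high cluster of 5, the G3 folic acid kidneys and WT folic acid 1, and a low cluster of 10. The 4 libraries highest in Junb (G3 folic acid 1, 2 and 4 and WT folic acid 1) were also the 4 highest in Havcr1, in Lcn2, and in Socs3 and Nfkbiz, early response genes of cytokine signalling that were named after their values were seen. Taking the 7 highest of each gene instead, Junb shared 4 libraries with Havcr1, 5 with Lcn2, 6 with Socs3 and 4 with Nfkbiz. The number that unrelated genes share was not computed. Socs3 had 96.2, 58.2, 18.0 and 41.2 in G3 folic acid kidneys and 54.5 in WT folic acid 1, against 2.84 to 19.2 in the other 10 libraries. The sum of 6 macrophage markers (Cd68, Adgre1, Csf1r, C1qa, C1qb and C1qc) was 1844 to 2713 normalised counts in the 4 libraries highest in Junb and 707 to 1351 in the other 11, and its part in the Junb level was not tested. Among the 10 libraries of the low cluster the relation of Junb to Havcr1 was weak (r = 0.27, permutation p = 0.447, and rho = 0.21, permutation p = 0.554; adjusted p = 0.746 and 0.814 over 50 relations).

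Fosb was low in the high Havcr1 cluster and wide in range outside it. Across the high cluster Fosb lay between 0 and 2.27, but within the vehicle groups, where Havcr1 was at most 9.02, it ranged from 1.0 to 50.8. Fos, Egr1 and Zfp36 were high in WT folic acid 1 (28.4, 161 and 60.1) and not in the G3 folic acid libraries with as much Havcr1 (at most 11.8, 93.0 and 37.2). In the low Havcr1 cluster no member passed with Havcr1, the strongest being Jun with r = -0.63 (permutation p = 0.0511, adjusted p = 0.182 over 50 relations) and rho = -0.62 (permutation p = 0.0643, adjusted p = 0.234). Without G3 vehicle 4 and 1 the r of Jun was -0.39.

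Atf3 and Jun correlated across libraries with Arntl (Bmal1), a core activator of the circadian clock, which was read beside Dbp, a clock output gene that peaks at the opposite time of day. Arntl had 19.1, 21.6, 4.0 and 9.84 normalised counts in G3 folic acid kidneys, 77.3, 70.3, 2.16 and 3.01 in G3 vehicle kidneys, 25.0, 48.0 and 42.9 in WT folic acid kidneys, and 41.8, 43.6, 41.3 and 31.0 in WT vehicle kidneys. Dbp had 188 to 322 in G3 folic acid kidneys, 369 and 389 in G3 vehicle 3 and 4, and 146 in WT folic acid 1, against 23.4 to 64.3 in the other 8 libraries. G3 vehicle kidneys therefore split into libraries 1 and 2, with high Arntl and low Dbp, and libraries 3 and 4, with the reverse. Fosb, Jun and Atf3 split the same way in that group: Fosb had 26.4 and 9.77 in libraries 1 and 2 and 2.16 and 1.0 in libraries 3 and 4, Jun 491 and 403 and then 173 and 206, and Atf3 31.5 and 22.5 and then 2.16 and 4.01. No label states the hour at which a kidney was collected. Arntl itself was not called in any comparison, and of 10 clock genes tested limma called 2. Nr1d1, a repressor of Arntl, was higher for folic acid against vehicle in WT, at 328 ± 152 against 101 ± 41.0 (log2 1.68 ± 0.31, limma adjusted p = 0.0107), while Arntl averaged 38.6 and 39.4 in those groups. Ciart, a repressor of the Arntl complex, was higher for G3 against WT after vehicle, at 12.1 ± 6.52 against 1.5 ± 0.537 (log2 2.27, limma adjusted p = 0.0315), and after folic acid, at 19.6 ± 4.76 against 2.84 ± 2.84 (log2 2.77, limma adjusted p = 0.0249).

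Over the 15 libraries, Atf3 had r = 0.88 with Arntl (permutation, adjusted p = 0.0040 over 50 relations) and rho = 0.74 (adjusted p = 0.0537), and r was 0.73 without G3 vehicle 3 and 4. With group means taken off it was 0.86. Within the second title series (n = 6) it was 0.06, so that the relation did not hold there, and within the third (n = 6) it was 0.79. For Jun r was 0.82 (permutation, adjusted p = 0.0080) and rho 0.78 (adjusted p = 0.0537), with 0.64 without the same 2 libraries, 0.91 with group means off, and 0.77 and 0.76 within those title series. For Fosb r was 0.69 (permutation, adjusted p = 0.0507) and rho 0.68 (adjusted p = 0.0700), with 0.74 without the 2 libraries, 0.71 with group means off, and 0.73 and 0.41 within the title series. Egr1 had r = 0.68 (permutation, adjusted p = 0.0507) and rho = 0.51 (adjusted p = 0.233), with -0.43 and 0.85 within the title series. Fos had r = 0.52 (permutation, adjusted p = 0.162), with -0.84 and 0.59 within them, and Junb had r = -0.20. Arntl was added to the measures after its values had been seen beside those of Fosb, and 3 of the 50 relations had an adjusted p under 0.05 by r and 0 by rho.

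With log2 Arntl as a term in the limma fit, the log2 difference of Atf3 for G3 against WT was -0.33 after vehicle and -0.33 after folic acid, against -1.09 and -1.29 without the term. That of Egr1 was -0.57 after vehicle and -0.40 after folic acid. For Jun the contrast between genotypes changed sign with the term. It was 0.25 in vehicle kidneys (limma adjusted p = 0.459) and 0.38 in folic acid kidneys (limma adjusted p = 0.307). Without the term the Jun values were -0.15 and -0.12. The log2 difference of Fosb with the term was -1.82 for folic acid in WT (adjusted p = 0.0887), -2.02 for folic acid in G3 (adjusted p = 0.113), -1.50 for G3 against WT after vehicle (adjusted p = 0.216) and -1.70 after folic acid (adjusted p = 0.241). Junb for folic acid in G3 was 0.988 with the term and 0.999 without it. No member was called in this fit either.

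**Figure D5:**
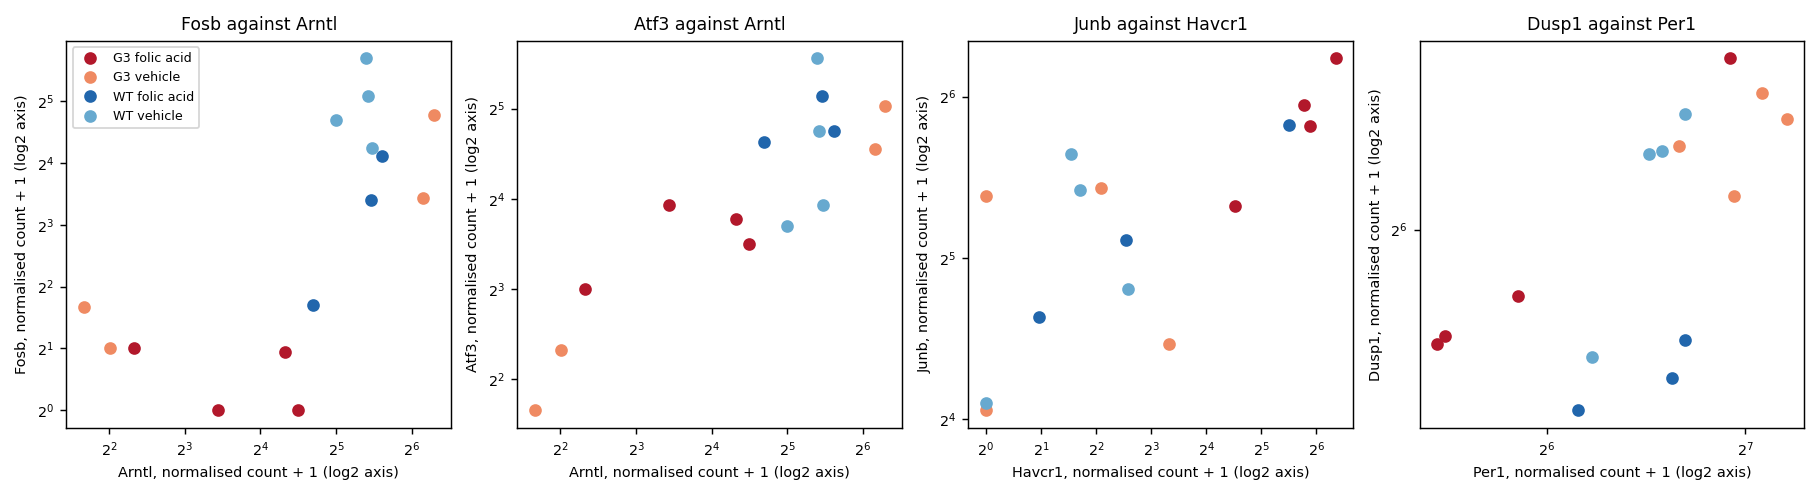
Fosb and Atf3 against Arntl, Junb against Havcr1 and Dusp1 against Per1, as normalised count + 1 on log2 axes, with 1 point per library coloured by group. G3 vehicle libraries lie at both ends of the Arntl axis, and the 4 libraries highest in Junb are the 4 highest in Havcr1.

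Dusp1 was set beside Per1, a period gene of the clock that glucocorticoids also induce, and the relation did not pass. Per1 had 42.7, 120, 56.9 and 43.8 normalised counts in G3 folic acid kidneys, where the library at 120 was also the one with 109 for Dusp1, and 101 to 147 in G3 vehicle kidneys. It had 70.3 to 103 in WT folic acid kidneys and 73.9 to 103 in WT vehicle kidneys, where WT vehicle 2 was lowest in both genes. Over the 15 libraries r was 0.67 (permutation, adjusted p = 0.0507) and rho 0.64 (adjusted p = 0.0818), with 0.66 without G3 folic acid 1 and 4, 0.86 with group means off, and 0.50 and 0.91 within the title series with 6 libraries each. The 9 other members had r with Per1 between -0.48 and 0.33.

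As transcripts that can respond to handling of the tissue, 8 heat shock genes were summed (Hspa1a, Hspa1b, Hspa8, Hspb1, Dnajb1, Hsph1, Hsp90aa1 and Bag3), of which Hsp90aa1 and Hspa8 had the highest means. Their summed level was 4426 to 5170 normalised counts in G3 folic acid kidneys, 3753 to 6161 in G3 vehicle kidneys, 4560 to 4907 in WT folic acid kidneys and 5625 to 6766 in WT vehicle kidneys. Hspa1a and Hspa1b, the genes of the 8 most strongly induced by warming and protein damage, had 46.9 ± 11.5 and 47.3 ± 21.5 in G3 folic acid kidneys, 73.1 ± 31.1 and 82.6 ± 54.6 in G3 vehicle kidneys, 63.3 ± 7.99 and 44.4 ± 8.52 in WT folic acid kidneys, and 70.7 ± 31.1 and 58.6 ± 55.1 in WT vehicle kidneys (SD). Neither was called in any comparison, and the relation of Fosb to these genes alone was not tested. In WT vehicle 4, with Fosb at 25.0, Hspa1b had 18.98, while Hsp90aa1 and Hspa8 had 2603 and 1792 of the sum of 5848. In G3 vehicle 3, with Fosb at 2.16, Hspa1a and Hspa1b had 89.8 and 90.9. They had 107.8 and 156.6 in G3 vehicle 1 (Fosb 26.4), and 96.9 and 137.2 in WT vehicle 3 (Fosb 50.8). Fosb had r = 0.76 with the sum (permutation, adjusted p = 0.0223) and rho = 0.72 (adjusted p = 0.0537), with 0.73 without WT vehicle 1 and G3 vehicle 4, 0.76 with group means off, and 0.85 and 0.65 within the title series. No other member passed with the sum. Egr1 had r = 0.60 (permutation, adjusted p = 0.104) and rho = 0.70 (adjusted p = 0.0596), with r = 0.35 without the same 2 libraries. Atf3 had r = 0.54 and Ier2, in the other direction, r = -0.55 (permutation, adjusted p = 0.157 for each). The r of Fos with the sum was 0.17 and that of Junb 0.06. Of the 8 genes, 1 was called lower for folic acid against vehicle in WT (Hspa8, 1131 ± 163 against 1723 ± 76.5, SD), where 5.06% of all genes were called, and 2 lower for G3 against WT after vehicle (Hspa8 and Hsp90aa1), where 2.9% were. The folic acid effect on Hspa8 also differed between the genotypes, by 0.75 on the log2 scale (limma adjusted p = 0.0215), as did that of 3.82% of all genes. The RNA quality number is given for all samples together, with a mean of 6.3 and a range of 4.7 to 8.0, so that it could not be set beside single libraries. The parts of handling, injury and time of day in the members' values were not tested. All G3 folic acid libraries share 1 title series, which also holds G3 vehicle 4 and WT vehicle 4. They also share Dbp levels of 188 or more, as had G3 vehicle 3 and 4 (369 and 389). Both traits are therefore only partly separated from the group.

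Other genes of the pathway were put through the same tests. Of 7 other AP-1 subunits 5 were tested, and over the 5 comparisons limma called 0, with 6 results at an unadjusted p under 0.05, edgeR 0 and DESeq2 1. Jund, an AP-1 subunit present in resting cells, had 1260 ± 198 normalised counts in G3 folic acid kidneys, 1442 ± 125 in G3 vehicle kidneys, 1935 ± 451 in WT folic acid kidneys and 1890 ± 163 in WT vehicle kidneys (SD). Of 14 upstream kinases and SRF and ternary complex factors 13 were tested, and limma called 0, with 6 at an unadjusted p under 0.05, and edgeR and DESeq2 0. Of 26 other immediate early genes 23 were tested, and over the 5 comparisons limma made 5 calls in 3 genes, edgeR 5 and DESeq2 12, with 29 results at an unadjusted p under 0.05. Of those 29, 4 were for folic acid in WT and 10 for folic acid in G3. G3 against WT had 5 after vehicle and 6 after folic acid, and the difference between genotypes had 4. In that order 23.1%, 13.8%, 17.9%, 20.4% and 16.8% of all genes lay under that p. The limma calls numbered 1, 0, 2, 1 and 1, where 5.06%, 0.273%, 2.9%, 2.3% and 3.82% of all genes were called. These shares also apply to the other AP-1 subunits and the upstream genes. Hbegf, an EGF receptor ligand shed by injured tubules, was lower for folic acid against vehicle in WT, at 203 ± 17.9 against 353 ± 57.8 (log2 -0.78 ± 0.16, limma adjusted p = 0.0148). It was also lower for G3 against WT after vehicle, at 153 ± 9.34 against 353 ± 57.8 (log2 -1.19 ± 0.14, limma adjusted p = 0.00097), and its folic acid effect differed between genotypes by 1.01 ± 0.21 (limma adjusted p = 0.0142). Klf2, a flow-induced endothelial factor, was higher for G3 against WT after vehicle, at 185 ± 24.9 against 112 ± 15.7 (log2 0.72 ± 0.16, limma adjusted p = 0.0270). None of these calls passed with the Y share or the title series as a term. Of 30 alternatives Klf2 passed in 22 and Hbegf in 25 for folic acid in WT and 28 after vehicle, each with the sign unchanged.

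Nr4a3, an orphan nuclear receptor of the early response, was lower for G3 against WT after folic acid, at 2.50 ± 2.77 against 17.0 ± 2.96 (log2 -2.72 ± 0.63, limma adjusted p = 0.0332), and it passed in 21 of 29 alternatives, not with log2 Arntl, the Y share or the title series as a term, nor in a fit to the compared groups only, nor without G3 folic acid 1 or 3 or WT folic acid 2 or 3. Its relative Nr4a2 had 16.3, 19.7, 11.0 and 11.6 normalised counts in G3 folic acid kidneys, 79.3, 46.9, 14.1 and 19 in G3 vehicle kidneys, 26.1, 52.8 and 63.9 in WT folic acid kidneys, and 190, 57.8, 174 and 49.95 in WT vehicle kidneys. The 7 libraries highest in Fosb and the 7 highest in Nr4a2 had 6 in common, and those highest in its relatives Nr4a1 and Nr4a3 shared 5 each with Fosb. Taking the 4 highest of each gene instead, Fosb shared 3 with Nr4a2, 3 with Nr4a1 and 2 with Nr4a3. With Arntl, Fosb shared 6 of the 7 highest and 1 of the 4 highest. Here too the number that unrelated genes share was not computed. Of the genes outside the members with a mean of at least 20, the 8 most like the members' mean (each gene centred on its own mean, Pearson's r over 15 libraries, 11756 candidates) were Rtl6, Hipk1, Ypel2, Supt5, Resf1, Nr4a2, Megf9 and Ggps1, with r between 0.82 and 0.89. Each of them except Rtl6 was lowest in G3 folic acid 3 among the 15 libraries, as Fos and Egr1 were. The members' mean was itself lowest there (-0.948 on the centred log2 scale), and the 8 genes were picked for following that mean. Their low in that library therefore follows from the choice and is no separate observation.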

How the data were processed

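Kidney RNA of 15 libraries was made into 3' end libraries (QuantSeq FWD) from 300 ng of RNA, per the labels' protocols. The submitters' processing notes name FastQC 0.11.7, TopHat2 2.0.10, Bowtie 1.0.0, SAMtools 0.1.19 and HTSeq 0.6.1. The deposited table holds the authors' normalised counts, a signal unit of counts divided by a size factor per library. Dividing by each library's step gave whole reads for 100% of values (tolerance 0.001), 5014684 to 6609307 reads a library, and 0 columns were left unused. The members and lists were chosen with earlier results of these data known.

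Genes with at least 10 in 3 libraries (14651) were tested with limma 3.58.1 (R 4.3.3, trend) on log2(normalised count + 1), in 1 fit over the 4 groups, with Benjamini-Hochberg adjustment over all tested genes. edgeR 4.0.16 and DESeq2 1.42.0 on recovered reads, other scalings, filters, pseudocounts (0.5 and 5), terms for labelled sex, Y share, title series and log2 Arntl, library weights, fewer libraries and leaving out each library were alternatives; the Arntl term was chosen after seeing the data. Labelled sex was not in the reported fit because Xist and Y-linked RNA contradict it. Relations across libraries used Pearson's r and Spearman's rho with 100000 permutations, 2-sided, adjusted over 50 relations (10 members against Havcr1, heat shock sum, Gm42418 share, Per1 and Arntl), with Havcr1 taken only in its 10 low libraries since the values form clusters. The named genes were all members, up to 3 called genes of each list and the 8 genes most like the members' mean; Arntl, Dbp, Socs3, Nfkbiz, Jund, Hspa1a and Hspa1b were added after their values were seen. The procedure was tested on simulated data with 1 setting of spread for all genes. Every changed gene there had a higher mean count than Fosb, Fos, Atf3 and Ier2, so the simulation does not cover those members. Intervals and the limit that 0 reads allow (3 counts) cover counting error only. Library numbers follow accession order.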

Additional observations from a re-analysis of the deposited data

Results flagged for a closer look

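Among the 30 sets of 4 libraries tested for a library far from the other 3 (10 members in the groups of 4), 4 passed Dixon's 95% critical value, which chance passes in about 1 of 20. Jun in G3 folic acid 3 had 214 normalised counts, against 363 to 384 in the 3 others of that group. Egr1 in the same library had 28.0, against 83.6 to 93.0 in the others of its group. Dusp1 in G3 folic acid 2 had 109, against 43.6 to 50.9. Fos in G3 vehicle 1 had 28.5, against 10.02 to 11.7 in the 3 others.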

How the results depend on the processing

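With labelled sex as a term the number of genes called was 370 for folic acid in WT (741 in the reported fit), 12 for folic acid in G3 (40), 17 for G3 against WT after vehicle (425) and 103 for the difference between genotypes (560). With the Y share it was 1, 9, 1, 17 (337 for G3 against WT after folic acid) and 2 in the order WT, G3, vehicle, folic acid and difference, and with the title series 2, 0, 1, 0 and 3. Library weights gave 2087, 697, 1492, 2851 and 1548, and called 1, 0, 2, 2 and 0 members, Egr1 after vehicle (adjusted p = 0.0350) and Junb after folic acid (adjusted p = 0.0420) among them. DESeq2 gave 1257, 387, 787 and 763 in the 4 comparisons of groups, with 1 member in folic acid in G3 and 1 in G3 against WT after folic acid. Only the compared groups gave 420, 208 and 74 for WT, G3 and after folic acid, a filter of 50 gave 16 in G3, and the Arntl term 79 after folic acid. Without both libraries of mixed sex RNA it was 1254, 11, 578 and 966 for WT, G3, after folic acid and the difference, with 1 member in WT. Leaving out each library in turn gave 99 to 1306, 3 to 360, 81 to 685, 27 to 625 and 253 to 926 genes, and 0 to 1, 0 to 0, 0 to 1, 0 to 1 and 0 to 0 members, while the median SD of the members stayed between 0.501 and 0.569. None of the 14 single-gene differences with an unadjusted p under 0.1 changed sign. The cause of these shifts was not tested. Fosb, Fos, Atf3 and Ier2 rest on 0 to 53 reads a library, which limits them. No paired analysis was possible because the labels carry no replicate numbers shared between groups.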
